A study of Mus musculus with 4 samples.

Results

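The 9 genes described here are the receptor kinase that PLX5622 blocks and the receptors and ligands closest to it in function. They are Csf1r, its ligands Csf1 and Il34, and the related receptor kinases Flt3 and Kit. The others are the GM-CSF receptor chains Csf2ra and Csf2rb, the related beta chain Csf2rb2, and the G-CSF receptor Csf3r. All 9 were chosen by symbol, through the Ensembl identifiers of the count table and GENCODE M21 on GRCm38. All were found among the 55471 genes of the table. The study sequenced poly(A) RNA of CD11b-positive cells that had been isolated from mouse brain on magnetic columns. All 4 libraries belong to 1 group: mice aged 10 to 13 weeks took PLX5622, an inhibitor of CSF1R, for 7 days and were then kept off the drug for 10 days, 17 days in all, so that microglia could return. The labels name no genotype, strain or sex and do not tie a library to an animal, and the spread that the p-values below measure lies between these libraries alone and may be technical. With 1 group, levels and their spread between libraries are described, and no effect of the drug is measured.

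Microglia need the receptor tyrosine kinase CSF1R to survive and divide. It binds 2 ligands, CSF1 and IL-34, the latter made in the brain largely by neurons. FLT3 and KIT belong to the same class of receptor kinases and are best known from blood progenitors, dendritic cells and mast cells. The GM-CSF receptor pairs a ligand-binding alpha chain, Csf2ra, with a signalling beta chain, Csf2rb, that the IL-3 and IL-5 receptors also use. Mice carry another beta chain gene, Csf2rb2, whose product works with the IL-3 receptor. The G-CSF receptor, Csf3r, signals as a dimer and is known above all from neutrophils.

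Libraries 1 to 4, numbered as in the labels, held 23036202 to 24487418 counts, and 12512 genes reached a CPM of 1 (counts per 1000000 counts) in every library, which is called detected here. CPM were taken on library sizes scaled with TMM (trimmed mean of M values), so that a CPM of 1 stands for about 23 to 25 counts. All 17 homeostatic microglial markers were detected, Itgam, which encodes CD11b, among them at 531 ± 75.6 CPM (SD, n = 4). Library 3 stood apart: summed CPM of endothelial, pericyte and choroid plexus markers were 233, 104 and 3360 there, against at least 856, 461 and 16133 in each other library. In library 1 all 10 markers of border-associated macrophages were at their highest. In bulk RNA, fewer cells of a type and less RNA per cell cannot be told apart.

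Across genes, levels were ordered on CPM per kilobase of exon, since counts also grow with the length of a transcript. Csf1r led at 1646 ± 176 CPM per kilobase (SD, n = 4) and ranked 16 among the detected genes on that scale. Csf3r followed at 228 ± 50.8 and ranked 124, and Csf2ra at 63.0 ± 16.1 ranked 546. The beta chains stood close together, Csf2rb2 at 15.9 ± 2.88 and Csf2rb at 15.2 ± 3.44 CPM per kilobase. Csf1 had 11.4 ± 4.51, Il34 1.62 ± 0.849, Flt3 0.411 ± 0.0823 and Kit 0.224 ± 0.113 CPM per kilobase. Along this order, 6 of 8 neighbouring pairs kept their order in all 4 libraries. The exceptions were Csf2rb and Csf1, where Csf1 was the higher in library 2, and Flt3 and Kit, where Kit was the higher in library 4. For 2 pairs, Csf2rb2 with Csf2rb and Flt3 with Kit, the mean difference was smaller than its SD over libraries (0.08 ± 0.09 and 0.86 ± 0.97 on the log2 scale). With the longest transcript (4900 bases for Csf2rb, 4740 for Csf2rb2) in place of all exons, Csf2rb was the higher of that pair in every library. The exact two-sided sign-flip permutation p was 0.125 for the 6 pairs that kept their order, the smallest 4 libraries allow, and 0.25 for the other 2 (adjusted over the 8 pairs, 0.167 and 0.25). No pair could therefore pass 0.05.

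**Figure D1:**
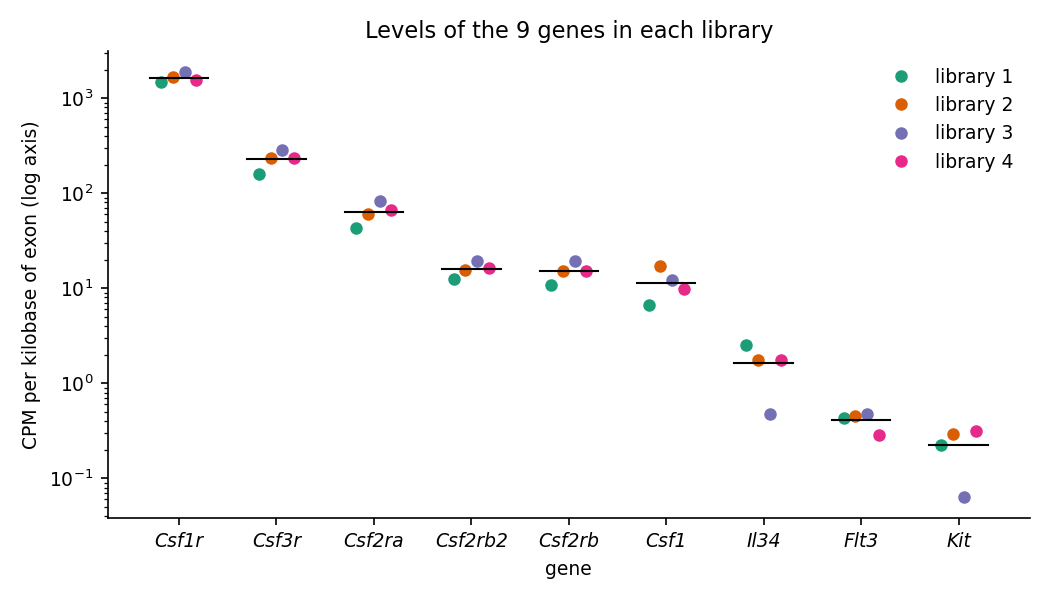
CPM per kilobase of exon (log axis) of each of the 9 genes; points are the 4 libraries and bars their mean. The 3 highest genes, Csf1r, Csf3r and Csf2ra, do not overlap with any other, whereas Csf2rb2, Csf2rb and Csf1 share a range and the points of Il34 and Kit in library 3 lie below the rest of their gene.

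Csf1r, the drug target, was the most abundant member by far and the least variable. It had 8645, 9608, 10896 and 8867 CPM in libraries 1 to 4. The highest library, library 3, exceeded the lowest, library 1, by 1.26-fold, less than the median of 1.43-fold over all 14112 genes tested. Most of those genes had far fewer counts than Csf1r. The median was 1.31-fold over the 17 homeostatic markers and 1.34-fold over the 23 signalling genes described below. The gene (ENSMUSG00000024621) is protein coding and lies on GRCm38 chromosome 18 from 61100598 to 61132149. Its exons overlap those of Hmgxb3 on the opposite strand over 15.1% of their length, and how the counting treated strand is not given in the sources used here. Hmgxb3 itself had 874 to 1018 counts, against 211924 to 247489 for Csf1r.

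The G-CSF receptor Csf3r was the next highest. In libraries 1 to 4 it had 580, 839, 1025 and 849 CPM (823 ± 183, SD, n = 4), so that library 1 was low, library 3 high and the other two close together. The gene (ENSMUSG00000028859) spans chromosome 4 from 126024550 to 126044440, and 88.5% of the windows of 50 bases in its longest transcript occur in no other gene of the annotation. Neutrophils are the cells best known for this receptor, and their markers are given beside it. The 12 neutrophil markers summed to 86.3, 88.7, 37.7 and 20.5 CPM, and 6 of the 12 were detected. Ly6g, a neutrophil surface protein, had 5, 5, 2 and 1 counts, and Elane and Mpo, granule proteins, had 0 counts in libraries 3 and 4. Their part in the level of Csf3r was not tested.

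The GM-CSF receptor chains and the related beta chain Csf2rb2 showed the same order of libraries at their ends. Csf2ra (ENSMUSG00000059326, chromosome 19, 61223957 to 61228429) had 125, 172, 237 and 189 CPM in libraries 1 to 4. Csf2rb (ENSMUSG00000071713, chromosome 15, 78325752 to 78353847) had 78.9, 112, 140.3 and 111 CPM. Csf2rb2 (ENSMUSG00000071714, chromosome 15, 78282507 to 78305721) had 59.0, 73.8, 92.3 and 77.1 CPM. Each chain was lowest in library 1 and highest in library 3, with highest-to-lowest ratios of 1.90, 1.78 and 1.56. Without library 1 these ratios were 1.38, 1.26 and 1.25.

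Ratios between these chains changed less than the chains themselves. Per kilobase, Csf2ra exceeded Csf2rb 4.01-, 3.89-, 4.28- and 4.33-fold in libraries 1 to 4, a spread of 0.07 (SD of the log2 ratio). The ratio of Csf3r to Csf2rb was 14.8, 15.1, 14.7 and 15.4 per kilobase, and its log2 value had an SD of 0.03. The ratio of Csf1r to Csf2ra varied more, at 34.4, 27.8, 22.9 and 23.3 per kilobase (SD of the log2 ratio 0.27). These ratios come from libraries of 1 group and describe those libraries.

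The beta chain genes are near copies, so their separate counts are less certain than those of the other members. Their coding sequences, 2688 bases for Csf2rb and 2634 for Csf2rb2, align over 2628 positions with 95.2% identity (125 mismatches), and the longest identical run is 242 bases. Of all 50-base windows of the longest transcript, 81.6% for Csf2rb and 80.5% for Csf2rb2 occur in no other gene. A stretch of 150 coding bases with the median number of mismatches is shown to let the copies be compared, with the 3 mismatches in capitals. It lies in exon 7 of Csf2rb and exon 6 of Csf2rb2, in the longest coding transcripts of GENCODE M21 on GRCm38, both read 5′ to 3′ on the gene's own strand.
Csf2rb, chr15:78340688-78340837, plus strand: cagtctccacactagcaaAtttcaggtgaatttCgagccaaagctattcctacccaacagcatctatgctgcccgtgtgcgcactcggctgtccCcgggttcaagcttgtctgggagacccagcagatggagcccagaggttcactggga
Csf2rb2, chr15:78292472-78292621, minus strand: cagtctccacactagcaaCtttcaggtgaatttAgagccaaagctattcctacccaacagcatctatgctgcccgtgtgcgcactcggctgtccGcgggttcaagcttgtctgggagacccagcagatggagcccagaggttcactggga
Stretches of this length held between 0 and 18 mismatches, and how reads matching both copies were assigned is not given in the sources used here. The ratio of Csf2rb to Csf2rb2 in counts was 1.34, 1.52, 1.52 and 1.44 in libraries 1 to 4.

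Csf1r, Csf2ra, Csf2rb, Csf2rb2 and Csf3r thus had their lowest level in library 1 and their highest in library 3. Of all genes tested, 17.2% had that order, and 5 of 9 members did. The same 5 genes had it with total counts or DESeq2 size factors, beside 12.2% and 20.8% of genes tested. When libraries were scaled to the summed homeostatic microglial genes, all 5 stayed lowest in library 1, and Csf1r, Csf2ra and Csf2rb stayed highest in library 3. Under that scaling 6.34% of genes tested had the order, and every gene of libraries 1 to 4 shifted by -0.17, 0.08, -0.09 and 0.18 (log2). The summed homeostatic markers were 45598, 38560, 43324 and 35844 CPM and border-associated macrophage markers 1605, 1154, 1166 and 990 CPM, so both were highest in library 1, where the receptor chains were lowest. Their part in the order of the receptor chains was not tested.

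**Figure D2:**
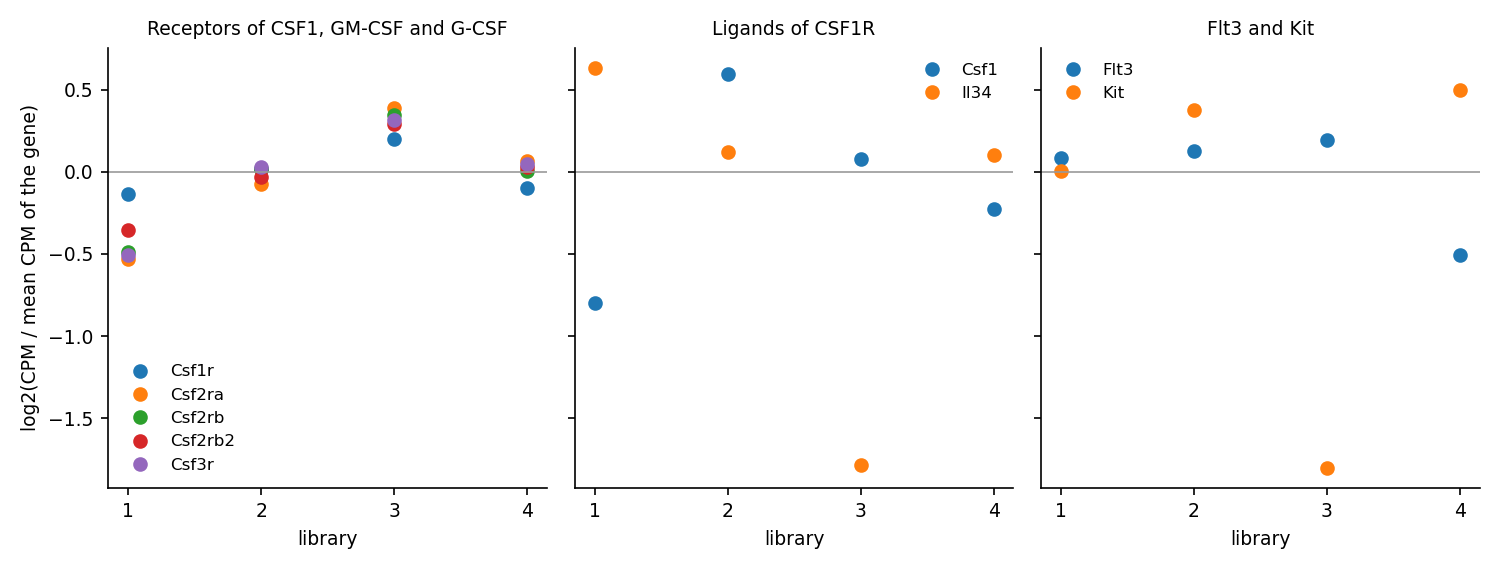
The log2 ratio of CPM to the gene's mean over the 4 libraries. Shown are 5 receptor genes (Csf1r, Csf2ra, Csf2rb, Csf2rb2 and Csf3r), the ligands of CSF1R, and Flt3 with Kit. Each point is 1 library. The 5 receptors have their low point in library 1 and their high point in library 3, Csf1 is highest in library 2, and Il34 and Kit are lowest in library 3.

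Promoter sequences are shown for the receptor chains that shared this order and were among the promoters searched. The promoters searched were taken from the RefSeq promoter table (GRCm38.p6). Of the 9 members, 6 were among them: Csf1, Csf2ra, Csf2rb2, Csf3r, Flt3 and Kit. For the remaining members no promoter was searched, which does not mean that they lack an entry in that table. For Csf2ra and Csf2rb2 the 250 bases before the RefSeq start are printed, 5′ to 3′ on the gene's strand. For Csf3r 30 bases are printed, since its RefSeq start lies 109 bases inside the gene as GENCODE M21 draws it. The RefSeq start of Csf2ra also lies inside the GENCODE gene, by fewer bases, and so does the core nearest to it. Capitals mark the letters GAGGAA or their reverse complement TTCCTC, the core bound by PU.1, the myeloid factor that Spi1 encodes.
Csf2ra, chr19:61228419-61228668, minus strand: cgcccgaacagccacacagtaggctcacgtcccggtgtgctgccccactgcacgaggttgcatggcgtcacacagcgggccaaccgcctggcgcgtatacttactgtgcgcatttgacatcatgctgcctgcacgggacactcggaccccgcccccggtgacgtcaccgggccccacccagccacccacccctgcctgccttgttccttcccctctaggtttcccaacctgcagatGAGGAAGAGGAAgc
Csf2rb2, chr15:78305722-78305971, minus strand: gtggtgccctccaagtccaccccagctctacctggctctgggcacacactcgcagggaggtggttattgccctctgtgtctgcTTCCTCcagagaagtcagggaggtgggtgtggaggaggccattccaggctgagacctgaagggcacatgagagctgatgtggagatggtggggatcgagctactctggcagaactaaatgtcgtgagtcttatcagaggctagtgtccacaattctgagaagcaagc
Csf3r, chr4:126024561-126024590, plus strand: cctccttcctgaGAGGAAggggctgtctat
Csf2ra has 2 copies of the core side by side, beginning 14 and 8 bases before the start. Csf2rb2 has 1, on the other strand, beginning 167 bases before the start, and Csf3r has 1, beginning 86 bases before it. Kit has the core as well, and Csf1 and Flt3 have none in their 250 bases. On either strand it occurs in 23.2% of 32817 promoters of that length. Such matches describe letters only.

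Csf1, the ligand, varied more than Csf1r, its receptor. It had 34.8, 91.4, 63.9 and 51.7 CPM in libraries 1 to 4 (60.4 ± 23.8, SD, n = 4), so that library 2 was high and library 1 low, 2.63-fold apart. The gene (ENSMUSG00000014599) lies on chromosome 3 from 107741048 to 107760469. In edgeR's goodness of fit, which asks whether a gene varied more between libraries than genes of its level, its unadjusted p was 0.00692 and its adjusted p 0.141. Without library 3 the adjusted p was 0.0501, and over all alternatives it ran from 0.0501 to 1.00. Monocyte markers, 6 of 9 detected, summed to 410, 728, 314 and 456 CPM. The high sum in library 2 came from Nr4a1 and Fn1, whereas 4 of the 9, Ccr2 and Ly6c2 among them, were highest in library 1. Their part in the level of Csf1 was not tested. The ratio of Csf1r to Csf1, per kilobase, was 227, 96.1, 156 and 157.

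Il34, the other ligand, was scarce. It had 121, 80, 21 and 86 counts, or 4.94, 3.46, 0.925 and 3.41 CPM, in libraries 1 to 4. The gene (ENSMUSG00000031750) lies on chromosome 8 from 110741829 to 110805924. Library 3 was low, with an exact 95% Poisson interval for its count of 0.572 to 1.41 CPM, below the lowest bound in any other library (2.73 CPM). Such intervals, and the limits for counts of 0, cover counting error only. Il34 missed detection because of library 3, and its adjusted p was 0.593 in edgeR. Without library 3 its mean was 3.93 ± 0.867 CPM (SD, n = 3) and its highest-to-lowest ratio 1.45 in place of 5.34. Per kilobase, Csf1 exceeded Il34 2.62-, 9.81-, 25.6- and 5.62-fold in libraries 1 to 4.

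Kit and Flt3 were near the limit of detection in this enriched population. Kit (ENSMUSG00000005672, chromosome 5, 75574916 to 75656722) had 49, 60, 13 and 71 counts, or 2.00, 2.59, 0.572 and 2.82 CPM. As with Il34, library 3 was low, and its Poisson interval of 0.305 to 0.979 CPM did not reach that of any other library, the lowest of which began at 1.48 CPM. Its adjusted p in edgeR was 0.571, and without library 3 its highest-to-lowest ratio was 1.41 in place of 4.92. Flt3 (ENSMUSG00000042817, chromosome 5, 147330741 to 147400489) had 66, 64, 66 and 45 counts, or 2.69, 2.76, 2.91 and 1.79 CPM. Its intervals overlapped across all 4 libraries, from 1.30 to 2.39 CPM in library 4 and from 2.25 to 3.70 CPM in library 3. Per kilobase, Csf1r exceeded Flt3 3435- to 5311-fold.

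Marker genes of cells known for these receptors and of neighbouring tissue were set beside them. Of 9 mast cell markers, only Hdc, which makes histamine, was detected, and the list summed to 8.12, 6.52, 4.09 and 9.01 CPM, lowest in library 3 as Kit was. Cpa3, a mast cell protease, had 3, 2, 1 and 4 counts. The 10 neuronal markers summed to 25.3, 27.9, 17.5 and 28.9 CPM, with 4 of 10 detected. The low sum in library 3 came from Map2 and Stmn2, whereas Snap25 and Camk2a, the other two detected, were highest there. The endothelial list (10 of 10 detected) summed to 971, 998, 233 and 856 CPM and the pericyte and smooth muscle list (7 of 9 detected) to 702, 676, 104 and 461 CPM. Choroid plexus markers (10 of 10 detected) summed to 16145, 16133, 3360 and 22508 CPM. Of all genes tested, 29.2% were lowest in library 3, as were 2 of the 9 members, and the same 2 were with the other 3 scalings (26.4%, 36.0% and 40.1% of genes tested). The part of these cells in the levels of Il34 and Kit was not tested. For Flt3, the 10 dendritic cell markers summed to 112, 72.3, 66.7 and 62.0 CPM, with 7 detected. Xcr1 and Clec9a, which define the cross-presenting dendritic cells, had 0 to 9 and 5 to 12 counts.

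**Figure D3:**
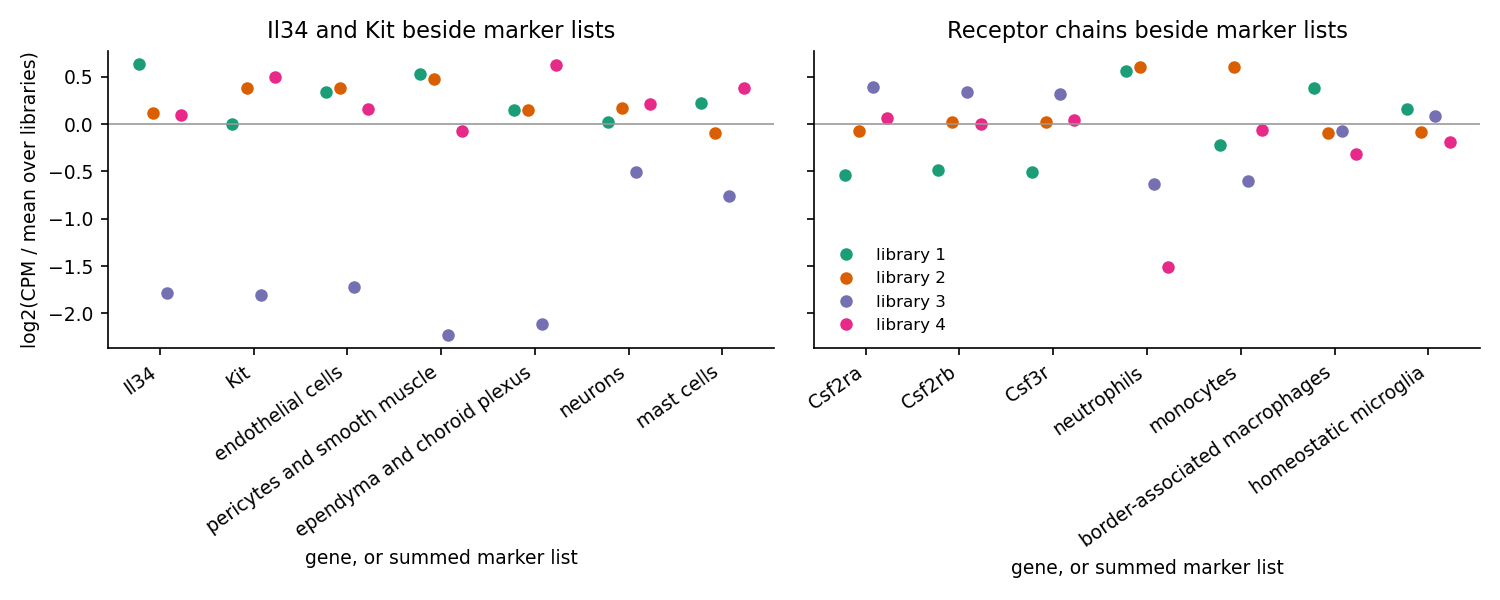
The log2 ratio of CPM to the mean over the 4 libraries, for single genes and for summed marker lists; each point is 1 library. Il34 and Kit share their low point in library 3 with the endothelial, pericyte and choroid plexus lists. The neuronal sum is also lowest there through Map2 and Stmn2, and the mast cell sum mostly through Hdc, and the receptor chains are highest in library 3, where the neutrophil list is lower than in libraries 1 and 2.

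All 9 members entered the test of spread over 14112 genes, and 0 of 9 passed it in edgeR, where 463 genes (3.28%) did. Without library 2, 3 or 4 that number of genes was 276, 106 or 258, with 0 members each time. At an unadjusted p under 0.05 there was 1 member, Csf1, beside 9.57% of all genes tested. The quasi-likelihood variance and DESeq2's dispersion outliers also gave 0 members, with 0 (0%) and 5 (0.0354%) calls over all genes, and by the quasi-likelihood variance Csf1 alone had an unadjusted p under 0.05 (0.0399), as did 4.66% of all genes. Adjusted p-values in edgeR were 0.78 for Csf2ra and 1.00 for Csf1r, Csf2rb, Csf2rb2, Csf3r and Flt3. The median highest-to-lowest ratio of the members was 1.78, beside 1.43 over all genes tested.

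**Figure D4:**
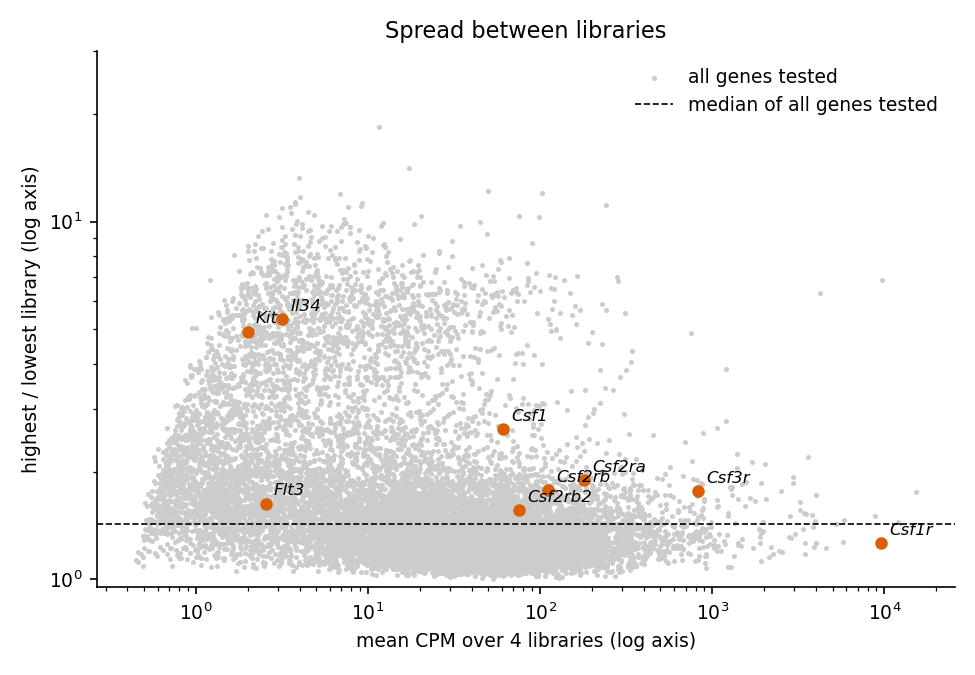
Highest library over lowest library against mean CPM, both on log axes, for all 14112 genes tested (grey) and the 9 members (orange); the dashed line is the median of all genes, 1.43. Csf1r lies under the line at 1.26, Csf1 at 2.63, and Il34 and Kit near 5 among other genes of low level.

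Further ligands and receptors of the family were mostly scarce. Csf2 and Csf3, which encode GM-CSF and G-CSF, and Il3 and Il5 had 0 counts in every library, save 1 count of Csf2 in library 4 and 1 of Il5 in library 2. A count of 0 allows up to 3 counts, or 0.119 to 0.132 CPM. Kitl, the ligand of KIT, had 98.2, 86.0, 53.1 and 81.4 CPM, and Flt3l, the ligand of FLT3, had 7.44 ± 0.554 CPM, so both ligands had higher CPM than their receptors. Il3ra, the IL-3 receptor alpha chain, had 8.39 ± 0.819 CPM and Il5ra 1, 1, 2 and 1 counts. Of 6 other receptors 4 were tested, and 1 passed, beside 3.28% of all genes tested: Pdgfrb, a receptor kinase of pericytes, with 24.9, 26.3, 5.90 and 20.2 CPM (edgeR, adjusted p = 0.0433). It was low in library 3 with the pericyte markers, and its adjusted p was 0.0536, 0.213, 1.00 and 0.0631 without library 1, 2, 3 and 4. With homeostatic scaling it was 0.0653, with no filter beyond 1 count 0.0765, and by the quasi-likelihood variance 0.889. Pdgfrb passed the threshold with total counts (0.0405) and DESeq2 size factors (0.0474).

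Signalling genes downstream of CSF1R were present throughout, with 23 of 23 detected and 0 called, beside 3.28% called of all genes tested. The phosphatases Inpp5d and Ptpn6, which restrain myeloid signalling, had 1095 ± 138 and 334 ± 32.1 CPM. The adaptor Tyrobp had 831 ± 155 CPM. The SRC family kinase Lyn had 623 ± 67.7 CPM, and the kinase Syk had 356 ± 53.0 CPM. Among the PI3 kinase genes, Pik3ap1, an adaptor, had 333 ± 75.9, Pik3r1, the regulatory subunit, 320 ± 31.1, and the catalytic subunits Pik3cd and Pik3cg 305 ± 47.1 and 288 ± 28.9 CPM. Cbl, which ubiquitinates the receptor, had 296 ± 63.6 CPM, Plcg2 had 278 ± 51.7 CPM and Adam17, a protease that sheds the receptor, 353 ± 32.4 CPM. The kinases Akt1 and Mapk3 had 230 ± 13.9 and 171 ± 17.9 CPM, and the adaptors Grb2 and Gab2 180 ± 22.5 and 127 ± 27.1 CPM. Of these 23 genes, 12 had the order of the 5 receptors, library 1 at the bottom and library 3 at the top, beside 17.2% of all genes tested. With homeostatic scaling the count was 9 of 23, beside 6.34% of genes tested. With TMM, 3 of 11 JAK-STAT genes, 3 of 8 myeloid transcription factors and 4 of 17 homeostatic markers had the order of the 5 receptors. Of the other ligands and other receptors tested, 0 of 2 and 0 of 4 had it.

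JAK-STAT genes, which carry GM-CSF and G-CSF signals, were also detected throughout, 11 of 11. Of these 0 were called, beside 3.28% of all genes tested. Jak1 had 322 ± 31.1, Stat3 163 ± 11.8 and Tyk2 108 ± 20.8 CPM. Socs3, a feedback inhibitor of these receptors, had 362, 489, 266 and 192 CPM in libraries 1 to 4, highest in library 2 as Csf1 was. Its adjusted p in edgeR was 0.0568. It passed the threshold with total counts (0.0461) and without library 1 (0.00235) or library 3 (0.0372), and missed it under the other 6 alternatives, where it ran from 0.0813 to 0.889. Cish, another feedback inhibitor and a target of STAT5, had 4.12, 7.95, 2.55 and 9.29 CPM. The myeloid transcription factors were detected in 8 of 8 cases with 0 calls, beside the same 3.28%. Cebpa had 553 ± 68.0, Irf8 497 ± 81.0, Spi1 209 ± 22.5, Cebpb 156 ± 43.3 and Runx1 119 ± 15.4 CPM. Over the 54 genes of these lists the median highest-to-lowest ratio was 1.35 among the 48 tested, beside 1.43 over all genes tested.

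The genes most like each member across the 4 libraries were those whose log2 ratio to it varied least, among 9307 genes with a mean of at least 10 CPM. With so many genes and 4 libraries, close matches are common, and they describe these libraries only. For Csf1r they were Rbl1, Ermard, Ywhah, Mgat4a and Casp8, with an SD of the log2 ratio of 0.01 to 0.02, against a median of 0.21 over the genes compared. For Csf3r they were Diaph2, Tns3 and Wipf1, with Csf2rb in place 15 (SD 0.03). For Csf2rb they were Dhx35, Sema4d and Myo1f, and Csf3r came next in place 4. The genes closest to Csf2ra were Dhdh, Capn3 and H2-M3, with Csf2rb in place 44 and Csf3r in place 46. For Csf2rb2 they were Reep3, Rnpep and Wars2. Csf1 had no match as close: Hcar2, Plk3 and Plekho2 came nearest, with an SD of 0.10 to 0.12. Csf1r was in place 1989 for Csf3r and in place 1881 for Csf2ra.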

How the data were processed

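The authors deposited raw counts per Ensembl gene, with 1 column for each of the 4 libraries. The submitters' processing notes name GRCm38 and the tools featureCounts 1.6.5, STAR 2.7.2b and bcl2fastq 2.20.0.422. Not given in the sources used here are the annotation release and how counting treated strand and multiply matching reads. Per the labels' protocols, each directional poly(A) library started from 300 ng of RNA.

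Of 55471 genes, 55230 matched GENCODE M21 by identifier, which gave symbols, coordinates and exonic lengths (union of exons). CPM and the test of spread came from edgeR 4.0.16 in R 4.3.3. The test used TMM, filterByExpr (14112 genes) and the deviance of an intercept-only negative binomial fit with trended dispersion against a chi-square distribution with 3 degrees of freedom, with Benjamini-Hochberg adjustment over all genes and a threshold of 0.05. It was tested on simulated data. The quasi-likelihood F-test needs a coefficient, which 1 group does not offer, so the quasi-likelihood variance and DESeq2 1.42.0 served as alternatives. The order of levels used log2(CPM per kilobase + 0.05). Windows shared with other genes were counted in GENCODE M21 transcripts, and the coding sequences were aligned with Biopython 1.88. Named genes were the members, listed pathway genes at 100 CPM or more, at 1 CPM or less in every library or called, and for likeness 5 genes for Csf1r and 3 for each other member of at least 10 CPM. A few listed pathway genes are not reported here by name. Pathway genes near the threshold or described for their order were added after their values were seen. The members and lists were chosen with earlier results of these data known.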

Additional observations from a re-analysis of the deposited data

How the results depend on the processing

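Of 14112 genes, 463 passed the test of spread. The count was 0 by the quasi-likelihood variance and 5 by DESeq2's dispersion outliers, and it ran from 106 to 425 with 1 library left out (425, 276, 106 and 258 without library 1, 2, 3 and 4). The cause of these differences was not tested. The count of members past the threshold was 0 under each of 10 alternatives. Of 8 neighbouring pairs, 6 kept their order in every library. The number was 5 with the longest transcript's length or with no length, 6 with a pseudocount of 0.5, and 6 to 7 with 1 library left out. The order of libraries shared by 5 members was noticed in the data; it held for 5 with DESeq2 size factors or total counts and for 3 with homeostatic scaling. Depth limits Il34, Kit and Flt3, with 13 to 121 counts in a library. No paired analysis was possible because the labels give 1 group.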
